A study of Homo sapiens with 6 samples.

Results

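AP-1 is a family of dimeric transcription factors, and the transcripts of 8 of its genes, FOS, FOSB, FOSL1, FOSL2, JUN, JUNB, JUND and BATF3, were examined in SK-OV3 cells, a human ovarian cancer line. The 8 genes were found by their symbols among the 59653 genes of a table of RNA sequencing counts, and all 8 were among the 19008 genes that reached 5 normalized counts in 3 libraries or more. They were chosen partly on the counts of this same comparison, in which FOSB was far lower in siPVT1 than its paralogs, so their differences, and how many pass the thresholds used for all genes, are given as a description and support nothing, with no p-value printed.

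Wild-type SK-OV3 cells were transfected with a pool of siRNAs to the long non-coding RNA PVT1 (siPVT1) or with a control siRNA pool (siControl), and RNA was extracted with Trizol after 48 h. Each group held 3 libraries, all 6 from 1 cell line, and the comparison asks which transcripts differ when PVT1 is silenced. The cells were kept in medium with full serum by the paper's methods, and no added drug or stimulus is named. Total counts per library ranged from 28383171 to 35059576. Nothing in the labels says that the replicates came from separate cultures, so p-values here measure only the spread between these libraries, which may be technical.

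AP-1 proteins bind DNA as pairs joined through a leucine zipper. FOS proteins need a partner, most often a JUN protein, whereas JUN proteins can also pair with each other, and BATF3 pairs mainly with JUN proteins. FOS, FOSB, JUN and JUNB are classic immediate early genes, transcribed within minutes of growth factor or stress signals, while FOSL1 (FRA-1) and FOSL2 (FRA-2) stay on longer and are often high in invasive carcinoma cells.

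The 8 genes lie at separate places in the genome (GRCh38), and all are protein coding. FOSB, JUNB and JUND share chromosome 19, at chr19:45467995-45475179 on the plus strand, chr19:12791486-12793315 on the plus strand and chr19:18279694-18281622 on the minus strand. FOS lies at chr14:75278826-75282230 (plus), FOSL1 at chr11:65892049-65900573 (minus) and FOSL2 at chr2:28392448-28417317 (plus). JUN lies at chr1:58776845-58784048 (minus) and BATF3 on the same chromosome at chr1:212686417-212699840 (minus). JUN, JUNB and JUND each have 1 exon in their canonical transcript, the 4 FOS genes have 4 exons each and BATF3 has 3.

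The promoters of FOSB and FOS are shown because their transcripts were the lowest in siPVT1 relative to siControl, with those of JUNB, which carries the same 2 motifs, and JUN, the main partner gene. Each line holds the 150 bases before the RefSeq start (GRCh38.p14), read 5′ to 3′ on the strand of the gene. The stretches are chr19:45467846-45467995 (plus) for FOSB, chr14:75278678-75278827 (plus) for FOS, chr19:12791336-12791485 (plus) for JUNB and chr1:58784048-58784197 (minus) for JUN. Capitals mark TGACG, the core of a cyclic AMP response element, TATAAA, the core promoter element bound by TBP, and in JUN also TGACATCA, a variant AP-1 element.
FOSB: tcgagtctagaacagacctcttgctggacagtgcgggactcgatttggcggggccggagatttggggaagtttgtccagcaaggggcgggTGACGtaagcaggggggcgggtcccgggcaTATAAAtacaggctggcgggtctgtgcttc
FOS: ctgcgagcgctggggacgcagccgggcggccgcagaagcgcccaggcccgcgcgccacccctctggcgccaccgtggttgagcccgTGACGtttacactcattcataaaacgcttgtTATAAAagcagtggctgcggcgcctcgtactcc
JUNB: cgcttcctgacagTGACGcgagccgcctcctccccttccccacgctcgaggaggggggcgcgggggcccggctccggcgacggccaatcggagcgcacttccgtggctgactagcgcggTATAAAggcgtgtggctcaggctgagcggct
JUN: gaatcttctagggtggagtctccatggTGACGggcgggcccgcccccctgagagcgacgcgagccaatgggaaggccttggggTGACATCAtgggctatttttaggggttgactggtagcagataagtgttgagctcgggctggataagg

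Positions are counted from the RefSeq start, with -1 the base before it. TGACG stood at -60 to -56 in FOSB, -64 to -60 in FOS, -137 to -133 in JUNB and -123 to -119 in JUN. TATAAA stood at -30 to -25 in FOSB, -33 to -28 in FOS and -31 to -26 in JUNB. JUN held TGACATCA at -67 to -60 and no TATAAA in its window.

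These motifs were searched on both strands of RefSeq promoters that run from 250 bases before the start to 50 bases from it on, in which 6 members had an entry (no entry for FOSL1 or BATF3). TGACG occurred in 6 of these 6 promoters and in 25.0% of all 27305 promoters of this length. TGACG and TATAAA occurred together in 3 of the 6, FOS, FOSB and JUNB, and in 2.01% of all. The longer elements were each in 1 member, TGACATCA in JUN (2.71% of all promoters), TGACGTCA, which overlaps TGACG, in JUND (1.98%) and TGACTCA in FOSL2 (4.92%, at 5 to 11 past the start). The CArG box, the element bound by serum response factor, was in none of the 6 windows and in 1.29% of all. Bases farther than 250 before the start were not searched, so the search cannot tell whether FOS or another member has a CArG box there. FOSB, FOS and JUNB thus shared these letters. FOSB and FOS were lower in siPVT1 and JUNB was higher, and any part of the motifs in these differences was not tested.

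PVT1, the targeted gene, had 3298, 4090 and 3377 normalized counts in siControl and 2350, 2111 and 2062 in siPVT1. Normalized counts are the deposited counts scaled between libraries by edgeR's TMM method. PVT1 fell by 0.72 on the log2 scale (SE 0.097, edgeR quasi-likelihood test with Benjamini-Hochberg adjustment, adjusted p = 0.000342, lower in 3 of 3 libraries), which did not reach the fold threshold described next. Replicates of siPVT1 differed from each other by more than those of siControl, where the chi-square of their counts divided by its degrees of freedom ran from 8.62 to 45.3, against 1.75 to 5.67. In bulk RNA, fewer cells of a type and less RNA per cell cannot be told apart, which holds for every level below.

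FOSB was the member that differed most. It had 1882, 1929 and 1910 normalized counts in siControl and 84.6, 72.1 and 82.7 in siPVT1, so every siPVT1 library lay far below every siControl library. The means were 1907 ± 23.6 and 79.8 ± 6.74 (SD, n = 3 each), which gave a log2 fold change of -4.58 (SE 0.086), or 23.8-fold lower, with 4.20% of the siControl level left. The raw counts behind these values were 1976, 1909 and 2068 in siControl and 76, 66 and 88 in siPVT1, so the low level still rested on 66 reads or more per library. FOSB encodes a FOS protein and a shorter splice form, ΔFOSB, that lacks part of the activation domain, and counts per gene cannot separate them.

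FOS, the founding member of the family, was lower too, by less. Its normalized counts were 766, 763 and 733 in siControl and 194, 170 and 148 in siPVT1, with no overlap. The means of 754 ± 18.3 and 171 ± 23.1 (SD, n = 3 each) gave a log2 fold change of -2.15 (SE 0.108), or 4.43-fold lower.

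FOSL2, which encodes FRA-2, stood on the other side. It had 8612, 8328 and 8511 normalized counts in siControl and 16010, 15120 and 14854 in siPVT1, with all siPVT1 libraries above all siControl libraries. The means were 8484 ± 144 and 15328 ± 606 (SD, n = 3 each), which gave a log2 fold change of 0.85 (SE 0.056), or 1.81-fold higher. FOSL1, which encodes FRA-1, had 14362, 14587 and 13660 normalized counts in siControl and 17623, 16842 and 15380 in siPVT1. The FOSL1 libraries did not overlap either, but the gap was narrow, with means of 14203 ± 484 and 16615 ± 1139 (SD, n = 3 each) and a log2 fold change of 0.23 (SE 0.067).

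Among the JUN genes, JUN was lower and JUNB higher in siPVT1. JUN, whose protein is the usual partner of FOS proteins, had 8416, 7798 and 8286 normalized counts in siControl and 6688, 5453 and 5312 in siPVT1. Its means of 8167 ± 326 and 5818 ± 757 (SD, n = 3 each) gave a log2 fold change of -0.49 (SE 0.093), with no overlap, siPVT1 replicate 1 being the closest to siControl. JUNB, a weaker activator that can hold JUN back, had 1168, 990 and 1115 normalized counts in siControl and 1777, 1788 and 1651 in siPVT1. The JUNB groups were apart, with means of 1091 ± 91.6 and 1739 ± 76.1 (SD, n = 3 each), with a log2 fold change of 0.67 (SE 0.079) and 1.59-fold more in siPVT1.

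JUND and BATF3 overlapped between the groups. JUND, which unlike JUN and JUNB is transcribed steadily in resting cells, had 469, 398 and 418 normalized counts in siControl and 462, 417 and 337 in siPVT1, a log2 fold change of -0.08 (SE 0.128). BATF3, a small factor without an activation domain of its own that is best known from dendritic cells, had 96.2, 76.8 and 103 in siControl and 100.2, 90.7 and 99.6 in siPVT1, a log2 fold change of 0.08 (SE 0.153). Both signs changed in other analyses, JUND's to 0.022 without siPVT1 replicate 3 and BATF3's to -0.072 with scaling by the total count and -0.035 without siControl replicate 2.

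**Figure D1:**
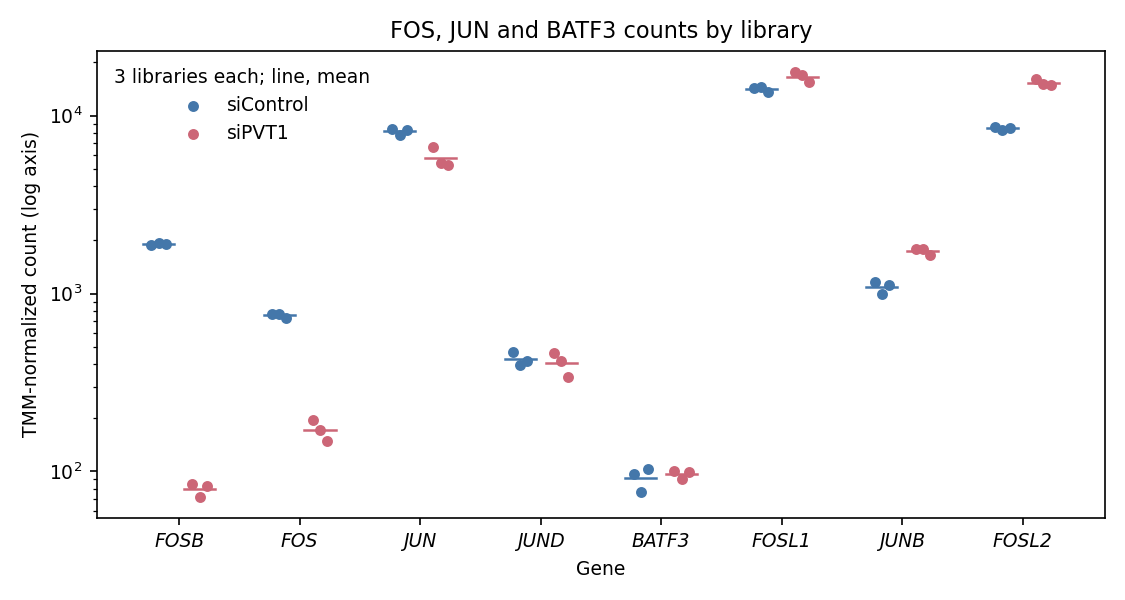
TMM-normalized counts (log axis) of the 8 genes in each of 3 siControl and 3 siPVT1 libraries, ordered by log2 fold change; points are libraries and lines are group means. FOSB went from 1907 to 79.8 on average and FOS from 754 to 171, FOSL2 and JUNB lay higher in siPVT1, and the points of JUND and BATF3 overlapped.

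A gene was called where the adjusted p was under 0.05 and the absolute log2 fold change at least 1. By both thresholds 2 of the 8 members, FOSB and FOS, were lower and 0 were higher, where 9.64% of all tested genes were lower, 11.8% higher and 21.5% either. By the adjusted p alone 3 members were lower (FOS, FOSB and JUN) and 3 higher (FOSL1, FOSL2 and JUNB), where 28.4% of all genes were lower, 29.5% higher and 57.9% either. The same 6 members had libraries that did not overlap between the groups, as did 65.6% of all genes tested (33.2% higher and 32.3% lower in siPVT1). Nothing is read from these counts, because the members were chosen with this contrast known. FOSL1 no longer passed the adjusted p with scaling by the total count (log2 fold change 0.076) or when siControl replicate 1 or 3 or siPVT1 replicate 1 or 2 was left out (0.17 to 0.23).

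The median log2 fold change of the 8 members was -0.003 and that of all genes 0.001, over members that ran from -4.58 to 0.85. FOSB and FOS were beyond the 5th percentile of all genes, which was -1.52, and the other 6 members lay between that and the 95th percentile of 1.74. Scaling by the total count moved the median of all genes to -0.15 and the higher share of called genes from 55.1% to 43.8%, and FOSB then stood at -4.73.

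**Figure D2:**
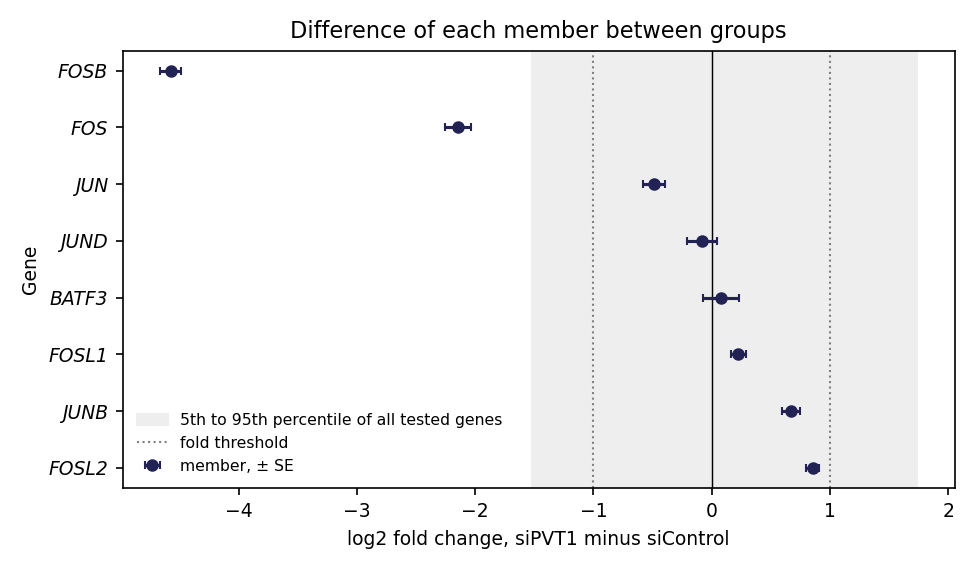
Log2 fold change of each member (siPVT1 minus siControl, points, with bars of ± 1 SE), with dotted lines at the fold threshold and grey from the 5th to the 95th percentile of all tested genes. FOSB at -4.58 and FOS at -2.15 lay outside the grey, and the other members ran from -0.49 for JUN to 0.85 for FOSL2.

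To compare levels between genes, normalized counts were divided by the length of the canonical transcript in kilobases. In siControl FOSL1 had the highest level, 8345 ± 284 normalized counts per kb (SD, n = 3), followed by JUN with 2507 ± 100.05 and FOSL2 with 1264 ± 21.4. JUNB at 596 ± 50.0, FOSB at 505 ± 6.25 and FOS at 358 ± 8.72 per kb were in the middle, and JUND at 222 ± 19.1 and BATF3 at 109.8 ± 16.05 were last. FOSB was thus above FOS, JUND and BATF3 in the control cells. Each gene's 3 siControl libraries lay above all 3 of the next gene in this order, so no neighbours overlapped.

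In siPVT1 the order per kb was FOSL1 (9762 ± 669), FOSL2 (2283 ± 90.3), JUN (1786 ± 233), JUNB (950.0 ± 41.6), JUND (210.3 ± 32.8), BATF3 (116 ± 6.38), FOS (81.1 ± 11.0) and FOSB (21.1 ± 1.78; SD, n = 3 each), and again no neighbours overlapped. FOSB moved from the fifth place to the last, FOS stood behind JUND, and FOSL2 and JUN changed places. The place of FOS against BATF3 in siPVT1 depended on the length used, since FOS was above BATF3 with merged exon lengths (53.5 ± 7.26 against 37.7 ± 2.08 per kb) and with the longest transcripts (81.1 ± 11.0 against 41.1 ± 2.26). With merged exon lengths FOS and JUND also overlapped in siControl. The order JUNB, JUND, BATF3 was kept in both groups.

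The summed level of the 8 genes was 13908 ± 262 normalized counts per kb in siControl and 15210 ± 1035 in siPVT1, a log2 ratio of means of 0.13. The lowest siPVT1 library, at 14168, lay next to the highest siControl library, at 14165, so the sum differed little while its make-up differed more. FOSB made up 3.52%, 3.67% and 3.71% of it in siControl and 0.138%, 0.125% and 0.155% in siPVT1. FOS and FOSB together went from 6.21% to 0.671% on average, and FOSL1 and FOSL2 together from 69.1% to 79.2%. The JUN genes went from 23.9% ± 1.17 to 19.4% ± 0.666 (SD, n = 3 each), within which JUN went from 18.03% to 11.72% and JUNB from 4.29% to 6.25%. FOSL1 alone held 60.0% ± 1.42 in siControl and 64.2% ± 0.708 in siPVT1.

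**Figure D3:**
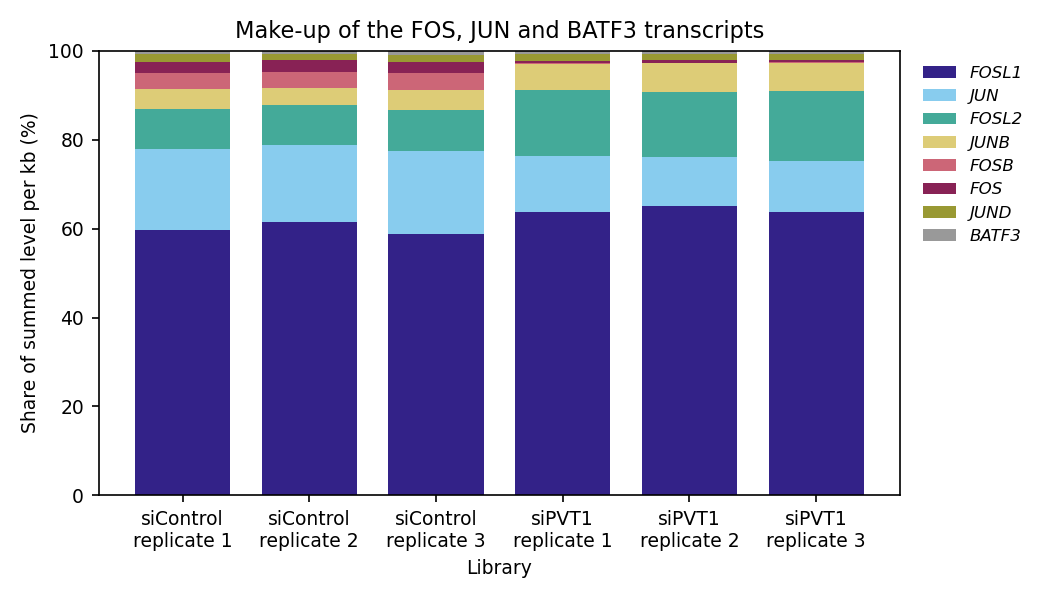
Share of each gene in the summed level per kb of the 8 genes (percent, stacked to 100) in each library. FOSL1 takes 58.8% to 65.0% of every bar, FOSL2 widens from about 9.09% to 15.0%, JUN narrows from 18.03% to 11.72%, and the FOSB and FOS bands nearly vanish in the 3 siPVT1 bars.

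Because a ratio of 2 genes within a library needs no scaling between libraries, FOSB was also set against each paralog. The ratio of FOSB to FOS per kb was 1.37, 1.41 and 1.45 in siControl and 0.243, 0.236 and 0.312 in siPVT1. FOSB transcripts thus outnumbered FOS transcripts per kb in every control library and were fewer in every siPVT1 library, with the mean ratio 5.35-fold lower. Against the other members the FOSB ratio was 16.9-fold lower for JUN, 22.3-fold for JUND, 25.6-fold for BATF3, 27.9-fold for FOSL1, 38.2-fold for JUNB and 43.2-fold for FOSL2. FOS was the paralog nearest to FOSB in this respect and FOSL2 the farthest.

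Short-lived AP-1 transcripts carry AU-rich elements in the 3′ untranslated region, built of repeats of ATTTA, at which decay proteins such as ZFP36 (tristetraprolin) bind. The canonical 3′ untranslated region held 5 copies of ATTTA in FOS, 3 in FOSB, 9 in FOSL2, 3 in JUN, 2 in JUNB and 1 each in FOSL1, JUND and BATF3. Of all 3′ untranslated regions within 20% of the same length, 8.03% held at least as many as FOS, 69.2% as many as FOSB and 60.1% as many as FOSL2. For its length FOSB was thus not rich in this element, and FOS held more copies than most. Any part of the element in the levels of the members was not tested. Of 13 genes for mRNA decay and for turnover of FOS and JUN proteins, 0 passed both thresholds (11.8% of all genes higher, 9.64% lower). Their median log2 fold change was 0.06. By the adjusted p alone 4 were higher and 2 lower, where 29.5% and 28.4% of all genes were. The 4 were ZFP36 (0.72, SE 0.153), ZFP36L2 (0.73, SE 0.063), USP28 (0.65, SE 0.063) and ITCH (0.28, SE 0.078). The 2 were KHSRP (-0.77, SE 0.102) and COP1 (-0.30, SE 0.100). These genes were named after their values were seen, and their part in the levels of the members was not tested.

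Other genes of the pathway are given by lists, beside the same shares for all genes (11.8% higher, 9.64% lower). These lists, and the decay and turnover genes above, were chosen with earlier results of these data known. Their counts and medians beside those of all genes are therefore a description and support nothing about the pathway. Of 13 tested AP-1-related leucine zipper factors (of 14, BATF not reaching the minimum), 1 rose and 2 fell, with a median of 0.08. CREB5, a cyclic AMP response element binding factor that can pair with JUN, fell from 2803 ± 29.3 normalized counts to 728 ± 71.2 (SD, n = 3 each), with a log2 fold change of -1.95 (SE 0.081, edgeR quasi-likelihood test, adjusted p = 1.4e-06, lower in 3 of 3 libraries). ATF3, a stress-induced partner of JUN, fell from 1691 ± 103 to 493 ± 70.2, with a log2 fold change of -1.78 (SE 0.110, edgeR adjusted p = 6.78e-06, 3 of 3). MAF, a large zipper factor that can pair with FOS and JUN, rose from a low 4.78 ± 0.751 to 27.7 ± 10.04, with a log2 fold change of 2.49 (SE 0.401). Its siControl libraries held 4.76, 4.04 and 5.54 normalized counts, so MAF reached the count minimum through siPVT1, where it was high. Its rise is therefore a description only.

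Upstream of the family stand the MAP kinases, which switch FOS and JUN on, and serum response factor, which drives FOS transcription. Of 22 tested MAP kinases and kinases next to them (of 23, MAPK10 not reaching the minimum), 4 rose, 0 fell and the median was 0.36. These were MAP3K5, a stress-activated kinase of the JNK and p38 branches (log2 fold change 1.42, SE 0.092, edgeR adjusted p = 8.38e-06), MAP2K1, the MEK1 kinase (1.201, SE 0.062, edgeR adjusted p = 3.13e-06), RPS6KA5, the MSK1 kinase (1.23, SE 0.084, edgeR adjusted p = 1.07e-05) and RPS6KA1, the RSK1 kinase (1.17, SE 0.102, edgeR adjusted p = 3.51e-05). All 4 were higher in 3 of 3 siPVT1 libraries. By the adjusted p alone 11 of the 22 were higher and 4 lower, where 29.5% and 28.4% of all genes were. Of 9 genes for serum response factor and its cofactors, 0 passed both thresholds, and the median was -0.14. By the adjusted p alone 1 was higher and 3 lower, where 29.5% and 28.4% of all genes were. The 3, named after their values were seen, were SRF itself (-0.55, SE 0.073), MRTFA (-0.50, SE 0.082) and MEF2C (-0.83, SE 0.256). The 1 that was higher, named in the same way, was ELK3 (0.17, SE 0.054). Their part in the level of FOS was not tested.

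Of 12 coactivators and corepressors, 0 rose and 3 fell, with a median of -0.16. SMARCD1, a subunit of the SWI/SNF remodeller that binds FOS and JUN, fell by 1.17 on the log2 scale (SE 0.079, edgeR adjusted p = 1.05e-05). CREBBP, the acetyltransferase CBP, lay on the threshold with a log2 fold change of -1.001 (SE 0.083, edgeR adjusted p = 2.77e-05) and no longer passed it without siControl replicate 2 (-0.98) or siPVT1 replicate 1 (-0.94).

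Of 24 other immediate early genes, 2 rose, 5 fell and the median was -0.02. EGR1, a zinc finger factor induced by the same signals as FOS, had 3528, 3643 and 3647 normalized counts in siControl and 264, 259 and 218 in siPVT1, and fell by 3.87 on the log2 scale (SE 0.087, edgeR adjusted p = 1.54e-07). Its relative EGR2 fell by 3.84 (SE 0.239, edgeR adjusted p = 7.09e-06), from 187 ± 16.01 normalized counts to 13.1 ± 5.33 (SD, n = 3 each). ID1, an inhibitor of basic helix-loop-helix factors, fell by 2.71 (SE 0.188, edgeR adjusted p = 1.15e-05) and the synaptic gene ARC fell by 1.17 (SE 0.115, edgeR adjusted p = 6.54e-05). NR4A2, an orphan nuclear receptor named here after its value was seen as the remaining gene of the 5, fell by 1.42 (SE 0.204, edgeR adjusted p = 0.000512). IER3, a survival gene, rose by 1.39 (SE 0.064, edgeR adjusted p = 1.94e-06), and MCL1, an anti-apoptotic BCL2 relative, by 1.27 (SE 0.097, edgeR adjusted p = 1.74e-05). The log2 fold change of FOSB was below and that of FOS above those of EGR1 and EGR2. Of the called immediate early genes, EGR1, EGR2 and ID1 lay below FOS, and NR4A2, ARC, MCL1 and IER3 above it.

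Downstream, 24 of 25 genes known as AP-1 targets were tested (MMP13 did not reach the minimum), of which 6 rose and 3 fell, with a median of 0.65 against 0.001 for all genes. PTGS2, the inducible cyclooxygenase, rose from 46.2 ± 8.70 normalized counts to 849 ± 215 (SD, n = 3 each), with a log2 fold change of 4.20 (SE 0.230, edgeR adjusted p = 3.88e-06). The cytokine IL11 rose by 3.27 (SE 0.067, edgeR adjusted p = 1.31e-07), IL6 by 2.91 (SE 0.172, edgeR adjusted p = 5.51e-06) and PLAU, the urokinase protease, by 1.34 (SE 0.054, edgeR adjusted p = 1.19e-06). SPP1, which encodes osteopontin, fell by 2.68 (SE 0.098, edgeR adjusted p = 7.92e-07) and the protease MMP3 fell by 1.72 (SE 0.184, edgeR adjusted p = 9.95e-05). IVL, an epidermal envelope gene, had 15, 12 and 8 counts in siControl and 0 in every siPVT1 library, at least 3.58-fold lower against a floor of 3 counts per library. IVL reached the count minimum through siControl alone, and without any 1 siControl library it was not tested. The median of 0.65 is the same with IVL at that bound, because IVL lies below the median either way. By the adjusted p alone 14 of the 24 were higher and 5 lower, where 29.5% and 28.4% of all genes were. Targets with large differences lay on both sides. These targets also respond to other factors, and the part of AP-1 in their levels was not tested.

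**Figure D4:**
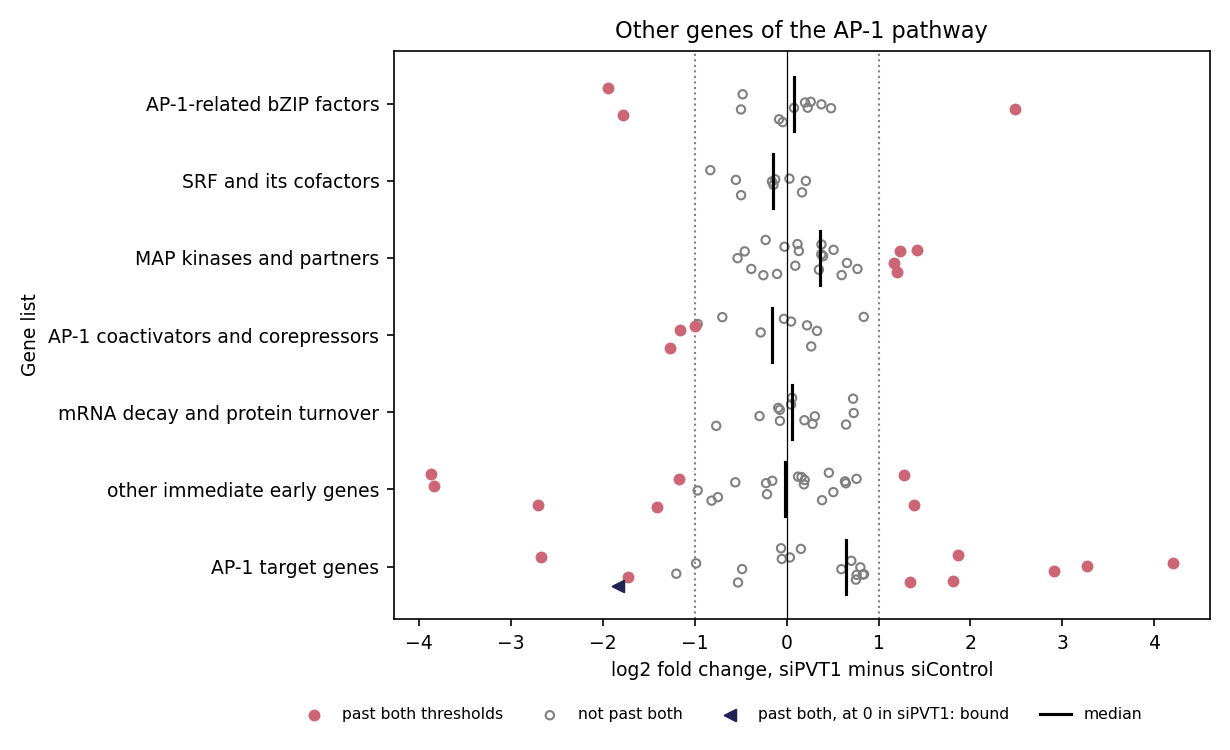
Log2 fold change (siPVT1 minus siControl) of every tested gene in 7 lists of AP-1 pathway genes, with filled points past both thresholds, open points not past both, a triangle for IVL at its bound and a black bar at each list's median. EGR1 and EGR2 sit near -3.87 and -3.84 and PTGS2 at 4.20, while the medians run from -0.16 to 0.65.

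The genes beside each member were looked at for differences shared with it. FOSB lies inside ERCC1, a DNA repair gene on the opposite strand with which it shares no exonic base, and ERCC1 had 1761, 1737 and 1701 normalized counts in siControl and 2065, 1828 and 1625 in siPVT1, a log2 fold change of 0.09 (SE 0.089). The groups overlapped at ERCC1. The nearest tested genes outside, both on the minus strand, were PPP1R13L, 61646 bases below FOSB, which rose by 1.49 (SE 0.157, edgeR adjusted p = 9.31e-05), and RTN2, 10115 bases above it, which rose by 1.61 (SE 0.108, edgeR adjusted p = 1.001e-05). The lower FOSB level was thus not shared by its neighbours.

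Across all members 18 neighbouring or overlapping genes were tested, of which 2 rose, 3 fell and 13 passed neither way, with a median log2 fold change of 0.06. Of all tested genes 11.8% rose and 9.64% fell by the same thresholds, so nothing about the places of the members is read from these counts. Those that fell were C11orf68 beside FOSL1 (-1.03, SE 0.166, but -0.98 without siControl replicate 1 and -0.86 without siPVT1 replicate 3), PLB1 beside FOSL2 (-1.82, SE 0.210) and ATF3 beside BATF3. Beside FOS, TMED10 was at 0.21 (SE 0.060) and JDP2, itself a repressor of AP-1, at 0.23 (SE 0.180). JUNB overlaps HOOK2 on the opposite strand, with 259 exonic bases in common and none in the canonical exons, and HOOK2 stood at 0.54 (SE 0.108) beside JUNB at 0.67. The strand setting of the counting is not given in the sources used here, so reads in that overlap cannot be assigned. The remaining neighbours were CCDC85B (0.03, SE 0.194), BABAM2 (0.18, SE 0.107), MYSM1 (-0.06, SE 0.061), LINC01135 (0.15, SE 0.347), GET3 (-0.27, SE 0.106), PRDX2 (-0.14, SE 0.114), IQCN (-1.70, SE 0.699), LSM4 (0.54, SE 0.075) and NSL1 (-0.04, SE 0.101), of which LSM4 passed the adjusted p alone.

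Genes whose pattern was most like that of FOSB were named by the root mean square distance between centred log2 normalized counts (pseudocount 0.5) over the 6 libraries. AKR1C1, an aldo-keto reductase of steroid metabolism, was among the nearest 5 at a distance of 0.173, with a log2 fold change of -4.32 (SE 0.101) and means of 14712 and 736 normalized counts. AKR1C1 has near-identical relatives, so its counts are uncertain, although the paper also reports it lower by RT-qPCR after PVT1 knockdown and higher with PVT1 overexpression. The other 4 owed their place to the pseudocount and dropped out at 1. They were AL589986.2, AC100821.1, AC109635.7 and the receptor gene P2RY14, which had means of 9.30 to 10.9 normalized counts in siControl and 0 in siPVT1, at least 2.96-fold to 3.46-fold lower against the floor of 3 counts. These 4 reached the count minimum through siControl alone, so they had to differ. AKR1C1 was the only gene of the 5 that stayed with a pseudocount of 1. FOS was 1.22 away from FOSB, and 366 other tested genes were closer to FOSB than FOS was. That count was made at a pseudocount of 0.5 only. With libraries in 2 groups the distance largely follows the log2 fold change, for which 72 genes lay below FOSB and 469 below FOS.

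All 10 markers of epithelial and ovarian carcinoma cells were detected, with a summed level of 27163 to 30457 normalized counts in siControl and 33250 to 36953 in siPVT1, and of them KRT19 and MSLN rose and WT1 fell past both thresholds. Markers of other cell types summed to 752 to 797 and 1432 to 1827, 3 of their 5 tested genes (PECAM1, VWF and COL1A1) rose past both thresholds, and PTPRC, CD3E and DCN were at or under 3 counts in every library. The part of these markers in the levels of the 8 genes was not tested.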

How the data were processed

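The data were 6 RNA sequencing libraries of SK-OV3 cells, 3 siControl and 3 siPVT1, taken 48 h after transfection and grouped by their titles. Libraries were prepared with a KAPA mRNA kit, and the authors aligned reads to the GENCODE v35 transcriptome (GRCh38.p13) with STAR and counted them with Salmon. The submitters' processing notes name bcl2fastq 2.20.0, STAR 2.7.3a, Salmon 0.14.1 and DESeq2 1.28.1. The strand setting is not given in the sources used here. The values deposited by the authors are estimated counts per gene symbol, already whole numbers and not normalized, so rounding changed nothing. Of 59653 genes, 25268 had 0 counts in every library, and 0 per-sample columns were left unused.

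edgeR 4.0.16 (R 4.3.3) was run on these counts with TMM normalization and the quasi-likelihood test, with the siRNA as the only term, on the 19008 genes that reached 5 normalized counts in 3 libraries or more, with Benjamini-Hochberg adjustment over all of them. A call needed an adjusted p under 0.05 together with a log2 fold change of 1 or more in size. The standard error is the absolute log2 fold change over the square root of F. DESeq2 1.42.0, other scalings and filters, a replicate block and leaving out each library were alternatives. The edgeR and DESeq2 steps were tested on simulated data. Positions, lengths and 3′ untranslated regions came from GENCODE v44 (GRCh38), whose symbols can differ from v35, and promoters from RefSeq (GRCh38.p14). Where every siPVT1 library had 0 counts, folds are lower bounds against 3 counts per library.

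The members and lists were chosen with earlier results of these data known. Named genes are the 8 members, PVT1, up to 4 higher and 4 lower called genes per list by p-value, the nearest tested genes on each side of each member, those that overlap a member, and the 5 genes nearest to FOSB in pattern. List genes named after their values were seen are marked so in the text. The values of some listed genes are not reported here.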

Additional observations from a re-analysis of the deposited data

How the results depend on the processing

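FOSB kept its direction in every alternative, with log2 fold changes of -4.63 to -4.52 when single libraries were left out, and so did FOS (-2.26 to -2.07), FOSL2 (0.81 to 0.86), JUN (-0.62 to -0.44) and JUNB (0.61 to 0.72). Dividing by merged exon length put the FOSB share of the family at 2.77% in siControl and 0.104% in siPVT1, since FOSB has a longer merged length. The log2 ratio of FOS to BATF3 per kb in siPVT1 was -0.51 and turned to 0.51 with merged exon length and 0.98 with the longest transcript, which gives BATF3 a longer length than its canonical transcript. With a pseudocount of 1, 1 of the 5 genes nearest to FOSB was shared with the main 5. Serum response factor and its cofactors held 0 to 1 genes that fell when single libraries were left out, the 1 without siPVT1 replicate 1.

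Log2 fold changes near 0 changed sign. Scaling by the total count gave -0.072 for BATF3, -0.064 for ERCC1 and -0.12 for CCDC85B. When single libraries were left out, JUND ran from -0.20 (without siPVT1 replicate 1) to 0.022 (without siPVT1 replicate 3) and BATF3 from -0.035 (without siControl replicate 2) to 0.16. The neighbours ERCC1 (-0.021 to 0.15), CCDC85B (-0.23 to 0.20), LINC01135 (-0.027 to 0.33) and NSL1 (-0.16 to 0.030) crossed 0 too. The causes were not tested.

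Replicate numbers did not pair the libraries, with correlations of same-numbered deviations of -0.03, 0.02 and 0.0009. A replicate block left FOSB at -4.58 and put CCDC85B at -0.00098. Depth limits genes of few counts, such as IVL and MAF, more than the members.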
